A study of Mus musculus with 147 samples.

Results

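A set of 10 genes used as markers of alternatively activated, CD206-type macrophages was followed through 147 mouse macrophage and monocyte libraries. The 10 genes are a list of mannose receptor, scavenger and lectin genes with their usual companions. The list was chosen with earlier results of these data known. All 10 were found among the 50686 gene identifiers of the count tables. They comprise the receptors Mrc1, Cd163, Folr2 and Lyve1, the lectins Clec10a, Cd209d and Cd209f, the secreted protein Retnla and the enzymes Cbr2 and Tgm2. RNA was measured by Smart-seq2 on sorted cells in 2 experiments, whose count tables were scaled separately, so levels are compared only within an experiment. In the refeeding experiment mice were fasted for 12 h (52 libraries) or fasted for 12 h and given chow again for 2 h (58 libraries), and 7 populations were sorted: adipose tissue macrophages, blood monocytes, microglia, colonic macrophages, islet macrophages, Kupffer cells of the liver and peritoneal macrophages. The diet experiment compared 3 treatments of mice, namely normal diet (ND, chow), high-fat diet (HFD) for 8 weeks, and HFD for 8 weeks with streptozotocin at week 4 (HFD+STZ), and sorted microglia and the macrophages of islets and peritoneum. Streptozotocin is a toxin of the insulin-producing beta cells, and the design describes these mice as hyperglycaemic. Every streptozotocin group analysed here was also on HFD, so the toxin was compared with HFD alone and with ND but not tested on chow. The sources used here do not give the strain, sex and age of the mice or the antibodies of each sort. Fasted and refed groups held 8 and 9 libraries of adipose macrophages, monocytes, microglia and colonic macrophages, 6 and 7 of islet macrophages and Kupffer cells, and 8 and 8 of peritoneal macrophages. Of the diet libraries, 4 ND, 4 HFD and 3 HFD+STZ were from islets, 5, 4 and 5 from peritoneum, and 4 per treatment from microglia. Sorted input was 100000 cells for diet peritoneal libraries, 5000 for diet microglia and 400 for diet islets and for all refeeding libraries.

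Macrophages exposed to the type 2 cytokines interleukin-4 and interleukin-13 signal through the interleukin-4 receptor and the transcription factor STAT6 and raise a set of endocytic receptors, lectins and enzymes. Several of the same genes also mark resident macrophages that sit beside blood vessels in fat, heart and other tissues without any such stimulus, and that are known for clearing debris and serum proteins. Mrc1 encodes the mannose receptor CD206, Cd163 the receptor that clears haemoglobin bound to haptoglobin, Folr2 the folate receptor beta and Lyve1 a receptor for hyaluronan. Clec10a binds galactose-type sugars, and Cd209d and Cd209f are mouse relatives of the dendritic cell lectin DC-SIGN. Retnla encodes the secreted protein RELM-alpha, Cbr2 a carbonyl reductase and Tgm2 tissue transglutaminase, which crosslinks proteins.

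All 10 are protein-coding genes of the mm10 assembly and were located with the GENCODE M21 annotation. Mrc1 lies at chr2:14229392-14332057 and Cd163 at chr6:124304656-124330527, both on the + strand. Folr2 lies at chr7:101839988-101857194 and Lyve1 at chr7:110850607-110863239, both on the - strand. Clec10a lies at chr11:70156197-70170834 (+), Cd209d at chr8:3871824-3878555 (-) and Cd209f at chr8:4102787-4105835 (-). Retnla lies at chr16:48842551-48844461 (+), Cbr2 at chr11:120729489-120732114 (-) and Tgm2 at chr2:158116402-158146436 (-). Reads were counted over exons. The exons of Folr2 share 975 bases with the antisense gene Gm10602, and those of Tgm2 share 1003 bases with Rprd1b and Gm20412 on the other strand. Whether the counting used strand is not given, so reads there could belong to either gene. Stretches of 50 bases were also searched across all transcripts. Of those of Cd209f 29.8% were found in Cd209g, of Cbr2 12.1% in Gm11771, and of Clec10a 9.02% in other genes, mostly Mgl2, so part of these counts is uncertain.

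The sequence just upstream of 4 genes is shown. Of these, Mrc1, Cd163 and Cbr2 were the ones called in peritoneal HFD+STZ against ND, and not against HFD alone. Retnla held the highest level of the 10. The sequences are from RefSeq (GRCm38.p6, the assembly of mm10), start 250 bases before the RefSeq gene start and stop before the first base annotated as transcribed. Each reads 5′ to 3′ on the strand of its gene, with matches to the searched motifs in capitals.
Mrc1, chr2:14229164-14229391 (+): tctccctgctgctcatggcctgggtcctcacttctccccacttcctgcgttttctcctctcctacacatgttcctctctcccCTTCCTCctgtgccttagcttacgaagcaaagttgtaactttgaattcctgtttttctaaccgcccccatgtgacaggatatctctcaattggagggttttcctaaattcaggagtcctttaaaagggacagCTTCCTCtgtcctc
Cd163, chr6:124304401-124304650 (+): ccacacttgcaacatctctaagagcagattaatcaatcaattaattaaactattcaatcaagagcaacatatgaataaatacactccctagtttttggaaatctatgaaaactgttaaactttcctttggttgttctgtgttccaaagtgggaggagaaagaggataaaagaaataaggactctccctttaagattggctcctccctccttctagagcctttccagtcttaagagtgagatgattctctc
Cbr2, chr11:120732115-120732271 (-): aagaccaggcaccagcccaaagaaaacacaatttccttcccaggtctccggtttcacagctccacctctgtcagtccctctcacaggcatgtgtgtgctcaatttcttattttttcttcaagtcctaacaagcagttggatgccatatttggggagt
Retnla, chr16:48842359-48842550 (+): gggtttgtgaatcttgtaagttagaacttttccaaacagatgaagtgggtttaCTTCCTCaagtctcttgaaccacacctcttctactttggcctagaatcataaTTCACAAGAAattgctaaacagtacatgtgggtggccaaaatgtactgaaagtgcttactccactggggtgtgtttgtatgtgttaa
A search for 4 motifs was run on both strands of the 250 bases before the start of 7 of the 10 genes and of all 32851 RefSeq promoters. The STAT6-type motif TTCNNNNGAA matched 1 of the 7 genes, Retnla, as TTCACAAGAA from 145 to 136 bases before the start, and 5.85% of all promoters. The STAT-type motif TTCNNNGAA, with 1 base less in the gap, matched none of the 7 and 7.02% of all promoters. The PU.1-type motif GAGGAAG, named for a transcription factor of macrophages, matched Mrc1 at 2 places, Cbr2 and Retnla, against 10.6% of all promoters. The MAF half-site TGCTGAC matched Retnla and 3.81% of all promoters. The Cbr2 match and the MAF match of Retnla fall inside bases that GENCODE annotates as transcribed and are not shown. These matches describe letters in a window and are not measured binding sites.

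Refeeding libraries held between 7915242 and 27315750 counts, and diet libraries between 11349232 and 34466388. A level is in CPM (counts-per-million) of the scaled library size, and a value with ± is the mean and SD of a group's libraries. The mean log2(CPM + 1) of a population's markers was above every library of the other populations in 17 of 17 microglia, 13 of 13 Kupffer, 17 of 17 monocyte and 16 of 16 peritoneal libraries, and in 16 of 17 colonic, 15 of 17 adipose and 11 of 13 islet libraries. Titles of 4 refed libraries (2 islet, 2 Kupffer) go with descriptions that name fasting only. In an alternative without these, and in another without 6 libraries that an earlier look had found to stand apart (2 adipose, 2 microglia, 1 Kupffer, 1 islet), 0 of the 10 genes were called after refeeding, as with all libraries. Where nothing in the labels says that the libraries of a group came from separate mice, p-values measure only the spread between libraries, which may be technical.

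In fasted mice the set was highest in adipose tissue macrophages. For 9 of the 10 genes the adipose mean stood first, and only Tgm2 was led by colonic macrophages and Kupffer cells. Kupffer cells stood second for Mrc1, Cd163, Folr2 and Lyve1 with no called difference from adipose macrophages (adjusted p = 0.775, 0.73, 0.998 and 0.99), and averaged below 1 CPM of Retnla, Cbr2 and Cd209d. Microglia ranked among the last 3 of the 7 populations for every gene except Tgm2. Each gene was tested with edgeR between all 21 pairs of populations, and over those pairs 17% of the 338394 tests were called (adjusted p below 0.05). The 10 genes were called in 11 (Clec10a) to 16 (Folr2, Cbr2 and Tgm2) of their 21 pairs. In a bulk library, fewer cells of a type and less RNA per cell cannot be told apart.

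**Figure D1:**
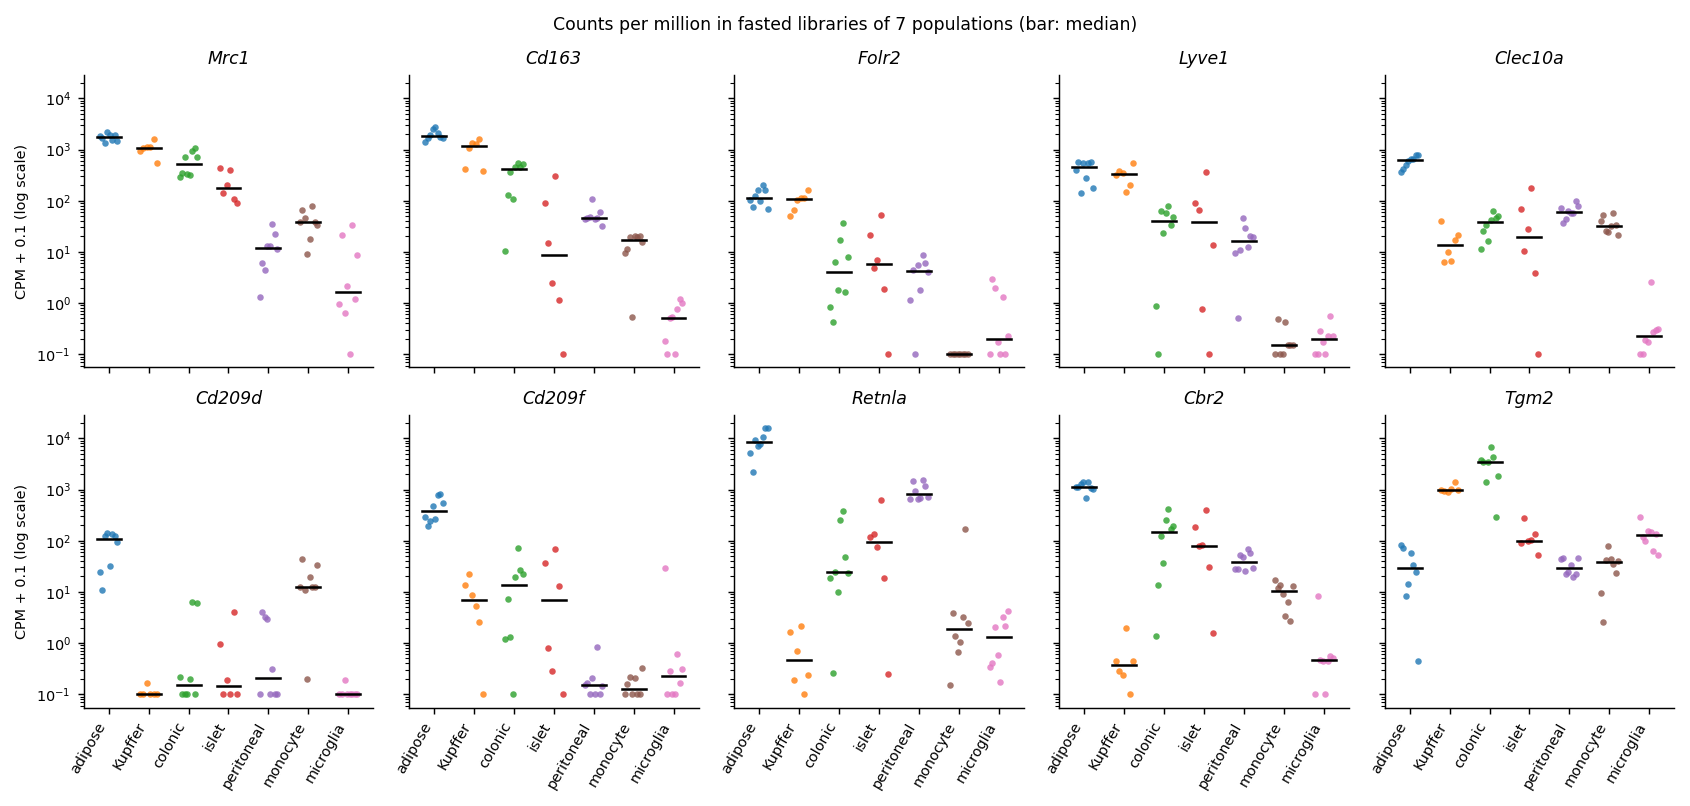
CPM + 0.1 on a log axis in each fasted library (points) of 7 populations, with the median as a bar, 1 panel per gene. The adipose median is highest in every panel but that of Tgm2, where the colonic and Kupffer medians of 3386 and 971 CPM stand above the adipose median of 28.7 CPM.

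Mrc1 averaged 1752 ± 295 CPM in adipose macrophages (n = 8), 1065 ± 330 in Kupffer cells (n = 6), 590.0 ± 309 in colonic macrophages (n = 8) and 233 ± 156 in islet macrophages (n = 6). It averaged 41.2 ± 23.4 CPM in monocytes, 13.3 ± 11.02 in peritoneal macrophages and 8.55 ± 12.5 in microglia (n = 8 each). Between neighbours in this order only the step from islet macrophages to monocytes was called (log2 difference 2.53, adjusted p = 0.00638). The lowest adipose library held 1352 CPM and the highest microglia library 33.6 CPM. Cd163, the haemoglobin scavenger, followed a similar order, with 1992 ± 454 CPM in adipose macrophages, 1024 ± 510 in Kupffer cells, 326 ± 212 in colonic and 68.6 ± 120 in islet macrophages. Peritoneal macrophages held 53.6 ± 23.3 CPM of Cd163, monocytes 14.4 ± 7.06 and microglia 0.452 ± 0.421, and the last step was the only one called (log2 4.92, adjusted p = 4.43e-05). The 6 fasted islet libraries ran from 0 to 304 CPM for Cd163, with a median of 8.69, so its islet mean rests on a few libraries.

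Folr2 and Lyve1 marked the same pair of populations. Folr2 averaged 123 ± 45.9 CPM in adipose macrophages and ran from 49.3 to 165 CPM in Kupffer cells (median 109.1), and the step down to islet macrophages at 14.5 ± 20.1 was called (log2 3.61, adjusted p = 0.0309). Colonic macrophages held 9.01 ± 12.4 CPM of Folr2, peritoneal macrophages 3.89 ± 2.87 and microglia 0.762 ± 1.09. No Folr2 read was counted in any of the 8 fasted monocyte libraries, and the step from microglia to monocytes was also called (adjusted p = 0.000243). Lyve1 averaged 399 ± 179 CPM in adipose macrophages, 324 ± 142 in Kupffer cells, 89.9 ± 142 in islet, 38.3 ± 29.1 in colonic and 18.6 ± 13.99 in peritoneal macrophages. Its one called step was from peritoneal macrophages to microglia (log2 7.10, adjusted p = 5.24e-06), and microglia and monocytes held 0.120 and 0.110 CPM. Lyve1 is also a gene of liver sinusoidal endothelium, whose 12 listed markers summed to 2868 to 6277 CPM in fasted Kupffer libraries and to 40.2 to 166 CPM in adipose ones. Clec4g, Stab2 and Oit3, markers of that list, averaged 625 ± 177, 1147 ± 350 and 313 ± 108.1 CPM in fasted Kupffer libraries. The part of this RNA in the Kupffer level of Lyve1 was not tested in the population comparison.

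The lectins were adipose genes first of all. Clec10a averaged 594 ± 158 CPM in adipose macrophages against 63.5 ± 19.3 in peritoneal macrophages, a called step (log2 3.21, adjusted p = 0.000205). Islet (48.3 ± 69.1 CPM), colonic (36.01 ± 17.8), monocyte (35.6 ± 13.2) and Kupffer libraries (16.7 ± 12.6) then followed without a called step, and microglia held 0.395 ± 0.823 CPM (log2 6.10 below Kupffer cells, adjusted p = 6.26e-08). Cd209f averaged 451 ± 245 CPM in adipose macrophages and at most 19.8 ± 27.6 CPM, in islet macrophages, anywhere else (log2 5.68, adjusted p = 0.00856). Cd209d averaged 85.8 ± 54.4 CPM in adipose macrophages and 18.1 ± 13.8 in monocytes, and below 2 CPM in the other populations. Monocytes thus ranked second for Cd209d, yet they held no more than 0.218 CPM of Cd209f in any fasted library. The adipose-monocyte step of Cd209d was not called (log2 2.13, adjusted p = 0.311).

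Retnla reached the highest level of the 10 per exon length, as given below. It averaged 9288 ± 4910 CPM in adipose macrophages, where single libraries ran from 2195 to 16086 CPM, and 974 ± 362 CPM in peritoneal macrophages, a step that was not called (log2 2.91, adjusted p = 0.0615). Islet and colonic means of 162 ± 233 and 94.8 ± 142 CPM came from libraries that ran from below 1 to 624 and to 385 CPM. Of the 8 fasted monocyte libraries 1 held 173 CPM and the others at most 3.73 CPM. Kupffer cells averaged 0.744 ± 0.869 CPM of Retnla. Cbr2 averaged 1136 ± 235 CPM in adipose macrophages and 153 ± 142 in colonic macrophages (log2 2.90, adjusted p = 0.0182), then 130 ± 148 in islet and 42.2 ± 16.9 in peritoneal macrophages. Kupffer cells stood last for Cbr2 with 0.480 ± 0.693 CPM, below microglia at 1.28 ± 2.84. Tgm2 reversed the pattern, with 3148 ± 1978 CPM in colonic macrophages, 1038 ± 195 in Kupffer cells, 132 ± 72.02 in microglia and 126 ± 78.6 in islet macrophages. It was lowest in adipose macrophages (36.7 ± 30.9), monocytes (34.3 ± 23.8) and peritoneal macrophages (32.4 ± 11.6), and no step between these 3 was called. The Kupffer-microglia step of Tgm2 was called (log2 3.15, adjusted p = 0.000125), and so was the islet-adipose step (log2 1.99, adjusted p = 0.0283). With voom quality weights in place of edgeR, the called pairs dropped from 14 to 1 of 21 for Retnla and from 16 to 3 for Tgm2.

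Levels of different genes can be compared only per length, as CPM per kilobase of merged exons. On that scale the 10 genes summed to 17751 CPM per kilobase in fasted adipose macrophages, of which Retnla made up 87.3% and Cbr2 4.82%. The sum was 1708 in peritoneal macrophages, and 95.1% of it was Retnla. Colonic macrophages (sum 1151) were led by Tgm2 with 59.3%. Kupffer cells (sum 769) had no single leader: Tgm2 held 29.3%, Cd163 24.4%, Mrc1 21.7% and Lyve1 14.5% of the sum. The islet sum was 513, with 52.7% from Retnla, the monocyte sum 94.5 with 40.9% from Retnla (mostly the 1 library named above), and the microglia sum 36.2 with 79.1% from Tgm2.

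Genes with the most similar pattern over the 52 fasted libraries were ranked by Pearson r of log2(CPM + 1). These r values mix population and library differences and are descriptions. Folr2 and Lyve1 chose each other (r = 0.902), Lyve1 was also among the top 3 of Cd163 (0.871), and Cbr2 and Retnla chose each other (0.847). Clec10a was followed by Gas7, Ccl6 and Cbr2 (0.868, 0.867 and 0.824). Bmp2, one of the sinusoidal endothelium markers above, stood first for both Cd163 (0.906) and Lyve1 (0.905), with Dok2 (0.881) and Igf1 (0.899) as their remaining neighbours. C1qtnf1 (0.890) and Samd4 (0.882) completed the list of Folr2, and Gm6377 (0.883), Clec4n (0.855) and Axl (0.855) that of Mrc1. Cd209f went with Cd209g (0.916), with which it shares transcript sequence, Nrp1 (0.882) and Wwp1 (0.828), and Cd209d with Rem1 (0.825), Gm13919 (0.788) and Olfm1 (0.750). Emp1 (0.850) and Mgl2 (0.843) came with Cbr2, and Slc41a2 (0.841) and Cxcl12 (0.840) with Retnla. Tgm2, like Mrc1, Cd209d and Cd209f, had none of the other 9 among its top 3. Those of Tgm2 were Adamdec1 (0.853), Hic1 (0.830) and Gm14023 (0.826).

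Refeeding changed none of the 10 genes by the adjusted test in any population. In adipose macrophages 6 of the 10 had an unadjusted p below 0.05 and all 6 were higher after refeeding, without passing the adjustment. In Kupffer cells the only gene with such a p was Lyve1, which was lower. In monocytes, microglia, colonic, islet and peritoneal macrophages there was none. edgeR called 0% of the 10924 genes tested in adipose macrophages, 0% of 10503 in monocytes, 0% of 10438 in microglia, 0% of 11856 in colonic macrophages, 0% of 10059 in islet macrophages, 0% of 11635 in Kupffer cells and 0.432% of 11331 in peritoneal macrophages. At an unadjusted p below 0.05 stood 5.16% of all genes in adipose macrophages, 2.42% to 3.27% in the other 5 populations with no call, and 1245 genes in peritoneal macrophages. DESeq2 called 74 genes higher and 38 lower in adipose macrophages and 7 to 68 genes in those 5, and voom at most 4 in these 6. Both tools called 0 of the 10 genes in all 7 populations.

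**Figure D2:**
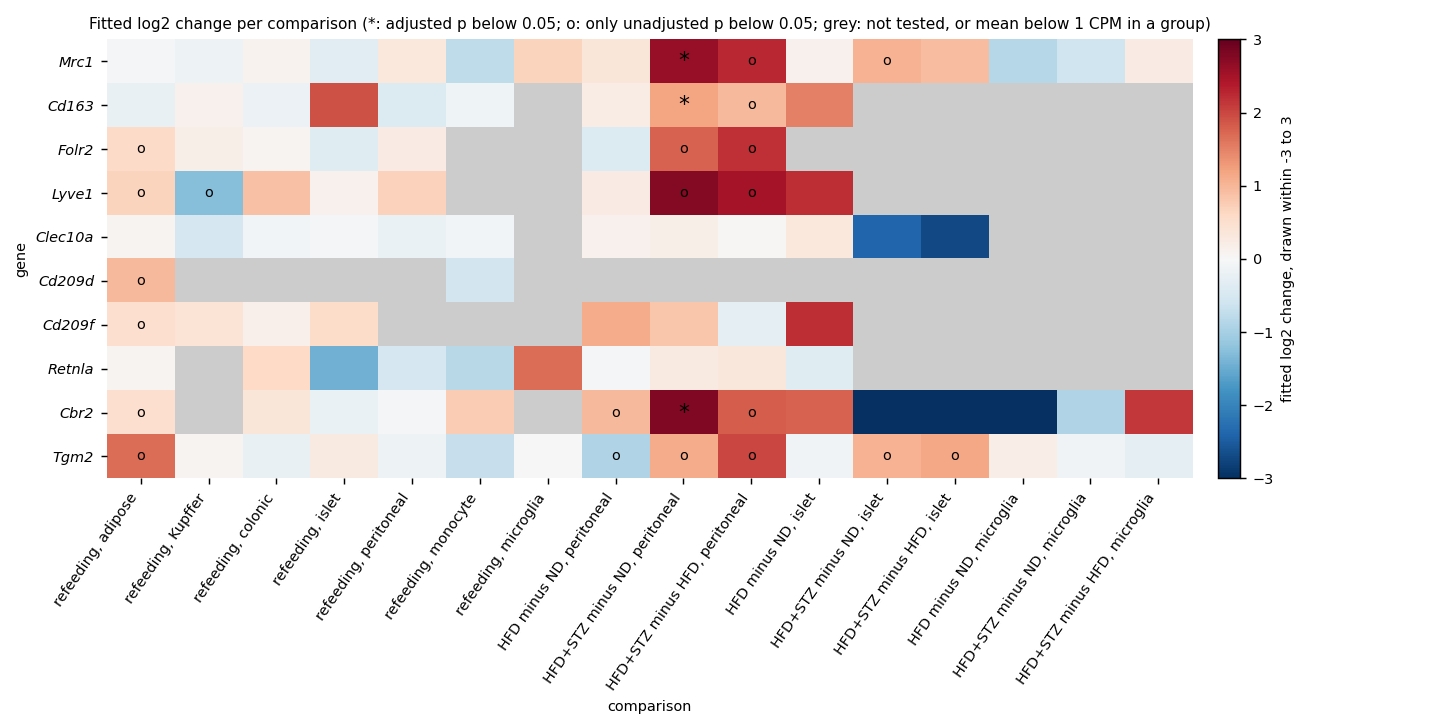
Fitted log2 change of the 10 genes (rows) in 7 refeeding and 9 diet comparisons (columns), coloured from -3 to 3, with grey where a gene was not tested or averaged below 1 CPM in a group. Stars mark the 3 adjusted calls, Mrc1, Cd163 and Cbr2 for HFD+STZ minus ND in peritoneal macrophages, and circles mark genes past the unadjusted threshold only.

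In adipose macrophages 8 of the 10 were higher after refeeding, with a median of 0.51 (log2), and Tgm2 showed the largest fitted change. Its fasted libraries held 0.353 CPM at the lowest, 28.7 at the median and 82.3 at the highest, and its refed libraries 15.6, 54.4 and 311. The groups overlapped widely, and the change was 1.67 ± 0.54 (log2, SE), higher in 4 of 4 cohorts, with an unadjusted p of 0.00665 and an adjusted p of 0.667. Cbr2 ran from 672 CPM through 1136 to 1391 in fasted and from 884 through 1660 to 2271 in refed libraries. Its change was 0.51 ± 0.17, higher in 4 of 4 cohorts (adjusted p = 0.677). Cd209d went from 10.7, 110 and 139 CPM to 83.1, 115.8 and 265 CPM (lowest, median, highest), a change of 0.97 ± 0.36 (adjusted p = 0.838). Its cohort 1 means were furthest apart, 17.5 CPM fasted and 96.8 CPM refed, and in the other 3 cohorts the difference on log2(CPM + 1) was 0.31 to 0.84. The remaining 3 were Lyve1 (0.67 ± 0.30, adjusted p = 0.944), Folr2 (0.57 ± 0.23, adjusted p = 0.865) and Cd209f (0.51 ± 0.21, adjusted p = 0.893). Folr2 and Cd209f were higher in 4 of 4 cohorts and Lyve1 in 3 of 4. Mrc1 (1752 ± 295 and 1768 ± 477 CPM), Cd163 (1992 ± 454 and 1680 ± 433), Clec10a (594 ± 158 and 635 ± 160) and Retnla (9288 ± 4910 and 9900 ± 4138) completed the set, fasted and refed in that order. Without a filter on low counts, Tgm2, Cbr2 and Lyve1 passed the adjusted test (adjusted p = 0.000812, 0.0202 and 0.0263), in a fit that called 96 of 23342 genes in all.

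Markers of other cells were looked at beside these values. The 9 mesothelium and fibroblast markers summed to 2.03 to 485 CPM in fasted and 80.96 to 1049 CPM in refed adipose libraries, and 4 of them were tested, all higher with none called (median log2 3.91). The mesothelial gene Msln was at 0 in 7 of 8 fasted and 9 of 9 refed libraries, and Upk3b, another mesothelial gene, in 5 of 8 and 7 of 9. The 4 tested genes were Dcn, Col1a1, Col1a2 and Col3a1, extracellular matrix genes of fibroblasts. The mean of Dcn was 73.5 ± 66.03 CPM in fasted libraries against 179.5 ± 189.3 CPM in refed ones, with an adjusted p of 0.999. That of Col1a2 was 4.52 ± 11.1 against 27.2 ± 26.6 CPM (unadjusted p = 0.0273, adjusted p = 0.865). The 7 adipocyte markers summed to 71.3 to 227 and 92.9 to 323 CPM, with 3 of 5 tested genes higher and none called. Their part in the adipose values was not tested. Of the 28 tested genes of the interleukin-4 and STAT6 list, 21 were higher and 0 called, with a median of 0.21 against -0.0042 for all genes. The 23 genes of the resident macrophage list gave 19 higher and 0 called (median 0.22), and the 33 other scavenger and lectin receptors 22 higher and 0 called (median 0.14).

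**Figure D3:**
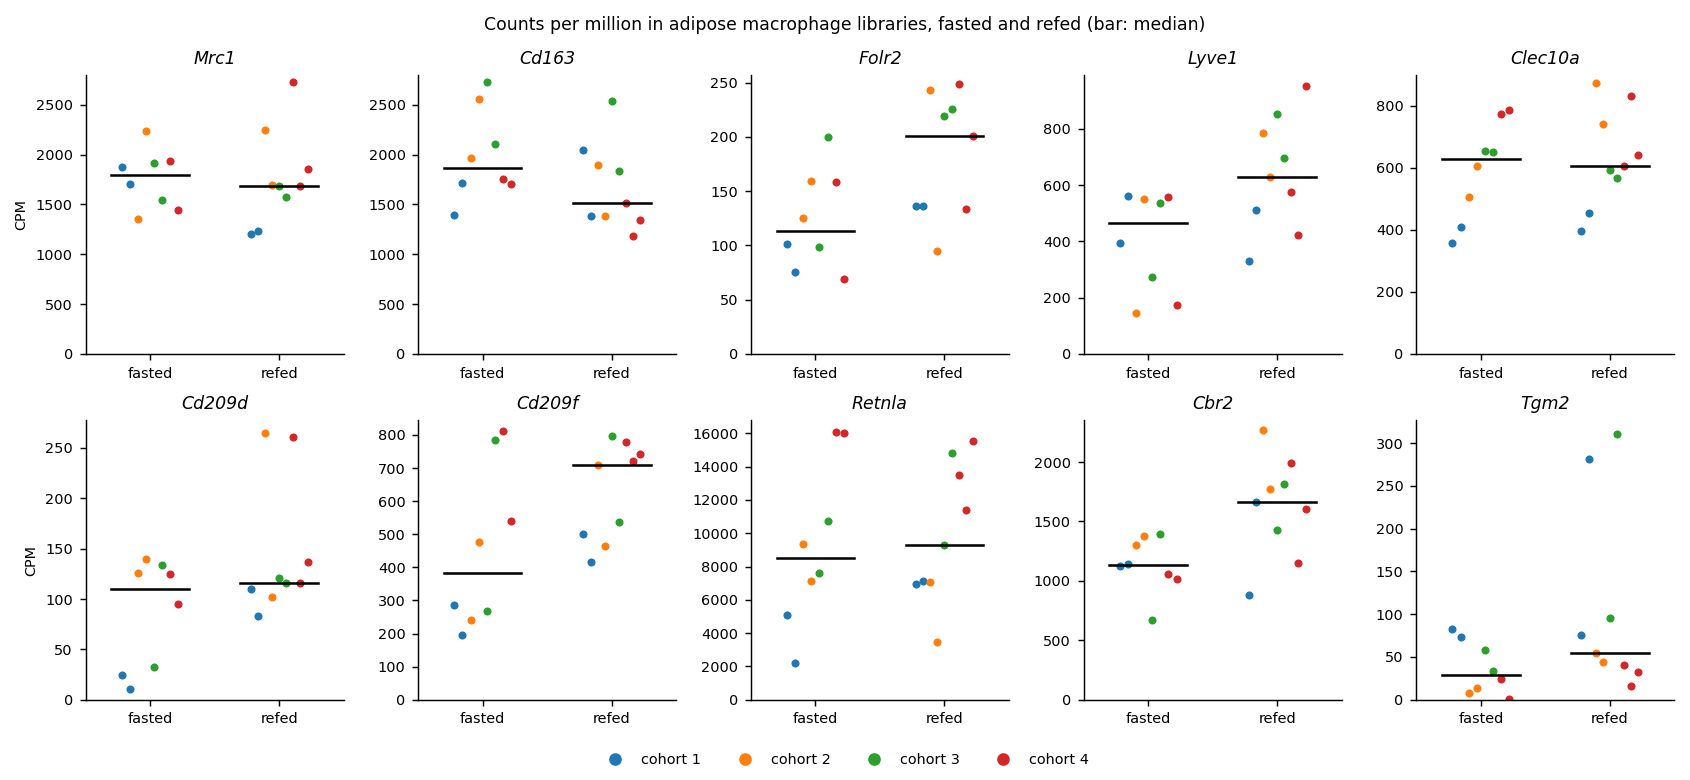
CPM in each adipose macrophage library, fasted (n = 8) and refed (n = 9), coloured by cohort, with the median as a bar, 1 panel per gene. The fasted and refed points overlap for every gene, and the medians of Tgm2 are 28.7 and 54.4 CPM.

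In Kupffer cells Lyve1 held 150.0 CPM at the lowest, 333 at the median and 551 at the highest of 6 fasted libraries, and 25.1, 123 and 386 CPM in 7 refed libraries. The groups overlapped, the change was -1.27 ± 0.49 (log2, SE; unadjusted p = 0.0228, adjusted p = 1), and the refed mean was lower in 3 of 3 cohorts. The 12 sinusoidal endothelium markers pointed the same way: 11 of 12 were lower and 0 were called, with a median of -0.74 against -0.04 for all genes, and their sum ran from 1214 to 6248 CPM in refed libraries. Clec4g averaged 387 ± 274 CPM in refed libraries, Stab2 852 ± 503 and Oit3 167 ± 148. The 6 lymphatic endothelium markers, for which Lyve1 is also known, averaged a sum of 311 ± 138 CPM fasted and 193 ± 168 refed. Flt4, which is also on the sinusoidal list, gave nearly all of it, with 306 ± 139 CPM fasted and 192 ± 167 refed. Prox1 averaged 5.42 CPM fasted and 0.890 refed, Pdpn 0 and 0.433, and Ccl21a was at 0 in every Kupffer library. Across the 13 Kupffer libraries Lyve1 was higher where the summed sinusoidal endothelium markers were higher (Pearson r = 0.825, permutation p = 0.00042, adjusted over 5 relations p = 0.0021; Spearman rho = 0.753, permutation p = 0.00386, adjusted p = 0.0193). Without the 2 libraries farthest from the median sinusoidal sum r was 0.589, and it was 0.478 within the 6 fasted and 0.825 within the 7 refed libraries. The permutations took no account of cohort or treatment, so cohort differences in both values can enter the relation. Refed libraries 1 and 2, both of cohort 1 and with descriptions that name fasting only, had the highest refed sums, 6248 and 4870 CPM. For Mrc1 in the same Kupffer libraries no relation passed the test (r = -0.0395, permutation p = 0.899, adjusted p = 0.899; rho = -0.0220, permutation p = 0.950, adjusted p = 0.960; r = 0.188 without the 2 farthest). The Kupffer levels of Mrc1 were 1065 ± 330 CPM fasted and 972 ± 168 refed, and those of Cd163 1024 ± 510 and 1131 ± 388. The part of endothelial RNA in the Lyve1 difference was not tested beyond this relation.

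**Figure D4:**
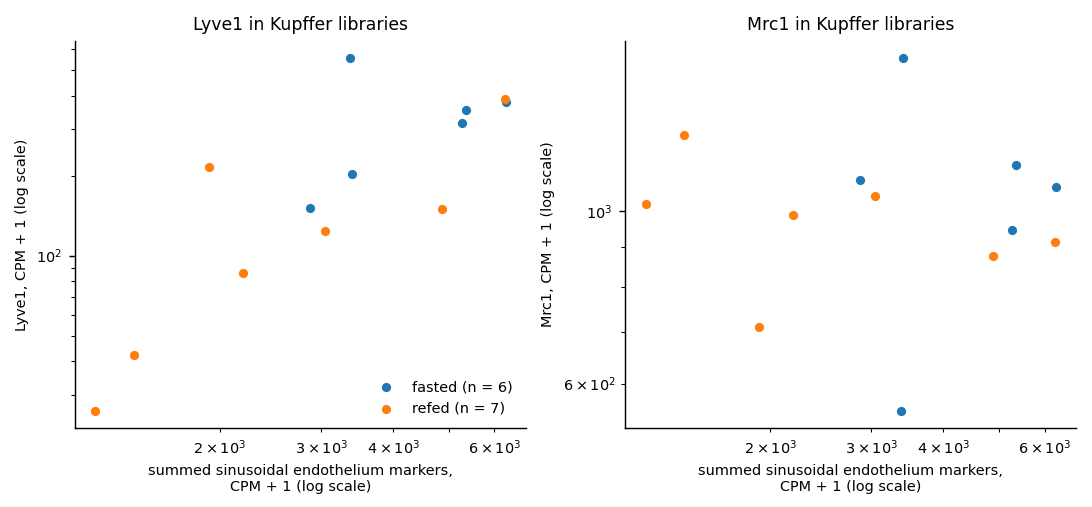
Lyve1 (left) and Mrc1 (right) against the summed sinusoidal endothelium markers in the 13 Kupffer libraries, both axes in CPM + 1 on a log scale. Lyve1 was higher where the endothelial sum was higher (r = 0.825, cohort and treatment not taken into account), and Mrc1 showed no such relation (r = -0.0395).

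None of the other 3 relations passed the test. Mrc1 in microglia against the 8 border-associated macrophage markers gave r = 0.289 over 17 libraries (permutation p = 0.259, adjusted p = 0.432; rho = 0.279, permutation p = 0.277, adjusted p = 0.462; r = 0.107 without the 2 farthest). These markers of macrophages at the brain's borders summed to 88.8 to 203 CPM in fasted and 96.5 to 281 CPM in refed microglia libraries. Ms4a6b, named here after its values were seen, gave most of that sum on average, with 102.3 ± 28.7 CPM fasted and 96.9 ± 45.5 CPM refed. Pf4, one of them, was at 0 in 2 of 8 fasted libraries and averaged 0.712 ± 0.914 CPM, and Mrc1 itself was at 0 in 1 fasted library. Peritoneal Retnla against the dendritic cell and small peritoneal macrophage markers gave r = 0.341 over 16 libraries (permutation p = 0.188, adjusted p = 0.432; rho = 0.485, permutation p = 0.0592, adjusted p = 0.148; r = 0.293 without the 2 farthest). Peritoneal Clec10a gave r = -0.0571 (permutation p = 0.834, adjusted p = 0.899; rho = 0.0147, permutation p = 0.960, adjusted p = 0.960; r = 0.0398 without the 2 farthest). In peritoneal macrophages 49 genes were called after refeeding, and 0 with the replicate number as a block. Retnla there went from 974 ± 362 to 712 ± 476 CPM, and Ninj1, a gene of the resident macrophage list, rose (0.45 ± 0.07, adjusted p = 0.00978). A joint fit of all 7 populations called 10.1% of 18640 genes for a refeeding effect that differed among populations, and 0 of the 10 genes (smallest adjusted p = 0.140). An unadjusted p below 0.05 was reached there by 2 of the 10 and by 22.8% of all genes. With the replicate number as a block, an alternative chosen after seeing the data, that fit called 3 genes instead of 1884.

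In peritoneal macrophages of the diet experiment, Mrc1, Cd163 and Cbr2 were higher in HFD+STZ than in ND mice. The fitted increases were 2.62 ± 0.50 for Mrc1, 1.18 ± 0.22 for Cd163 and 2.79 ± 0.40 for Cbr2 (log2, SE), with adjusted p of 0.0285, 0.0272 and 0.00521. Folr2, Lyve1 and Tgm2 pointed the same way with an unadjusted p below 0.05 and did not pass the adjustment. The same 3 called genes were not called in HFD against ND, nor in HFD+STZ against HFD. In HFD+STZ minus ND edgeR called 1.29% of 13225 genes, 88 higher and 83 lower, against 3 of the 10, and 19.6% of genes had an unadjusted p below 0.05 against 6 of the 10. The 10 genes had a median change of 1.14 against -0.01 for all genes, and 9 of 10 were higher. As the 10 were chosen with earlier results of these data known, these figures describe them and do not test them as a set.

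Mrc1 held 22.8, 63.7, 13.7, 31.2 and 34.1 CPM in the ND libraries of cohorts 1 to 5, and 45.0, 103.8, 382, 266 and 410.1 CPM in the HFD+STZ libraries of the same cohorts. The 4 HFD libraries (cohorts 1, 2, 4 and 5) held 25.7, 37.4, 48.9 and 64.7 CPM. HFD+STZ was thus higher than ND in 5 of 5 cohorts, by far most in cohorts 3 to 5, and the library of cohort 1 lay within the ND range. Cbr2 held 52.9, 44.4, 108.3, 37.1 and 56.4 CPM in ND, 63.0, 133, 125 and 92.4 in HFD, and 98.3, 271, 584, 569 and 796 in HFD+STZ. Only the cohort 1 library of HFD+STZ reached down into the ND range, whose top was the 108.3 CPM of cohort 3. Cd163 held 54.8, 44.1, 38.7, 48.6 and 65.1 CPM in ND, 65.2, 43.8, 54.7 and 65.9 in HFD, and 68.8, 76.9, 167, 130.2 and 151 in HFD+STZ. Its HFD+STZ libraries did not overlap those of ND or of HFD, although the lowest was only 68.8 CPM. The share of all genes that separated in this way is not given, so non-overlap here and below only describes the libraries.

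The receptors of the perivascular type showed the same split between cohorts. Lyve1 held 26.7, 33, 70.7, 15.2 and 25.3 CPM in ND, and 10.9, 66.3, 464, 368 and 633 in HFD+STZ. Its cohort 1 library of HFD+STZ was below the ND library of that cohort, and the change of 2.75 ± 0.73 was not called (adjusted p = 0.0805). Folr2 held 8.80, 13.99, 26.1, 8.83 and 7.73 CPM in ND, and 8.26, 18.02, 78.96, 72.4 and 99.8 in HFD+STZ (1.77 ± 0.45, adjusted p = 0.0736, higher in 4 of 5 cohorts). Tgm2 held 9.20, 20.5, 20.9, 18.3 and 15.5 CPM in ND, 8.37, 8.96, 8.56 and 7.49 in HFD, and 25, 14.7, 41.3, 41.03 and 69.3 in HFD+STZ (1.10 ± 0.32, adjusted p = 0.102). Retnla, the most abundant of the set here as well, averaged 2298 ± 890 CPM in ND, 1993 ± 588 in HFD and 3098 ± 1812 in HFD+STZ, and its 3 highest HFD+STZ libraries were again those of cohorts 3 to 5. Clec10a averaged 41.98 ± 13.4, 41.03 ± 3.93 and 47.7 ± 15.8 CPM, Cd209f 4.05 ± 2.12, 7.81 ± 1.98 and 8.91 ± 8.12, and Cd209d 0.873 ± 0.539, 1.29 ± 0.477 and 0.533 ± 0.271. The Cd209d change in HFD+STZ minus HFD was -1.44 ± 0.61 (unadjusted p = 0.0350, adjusted p = 0.567).

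**Figure D5:**
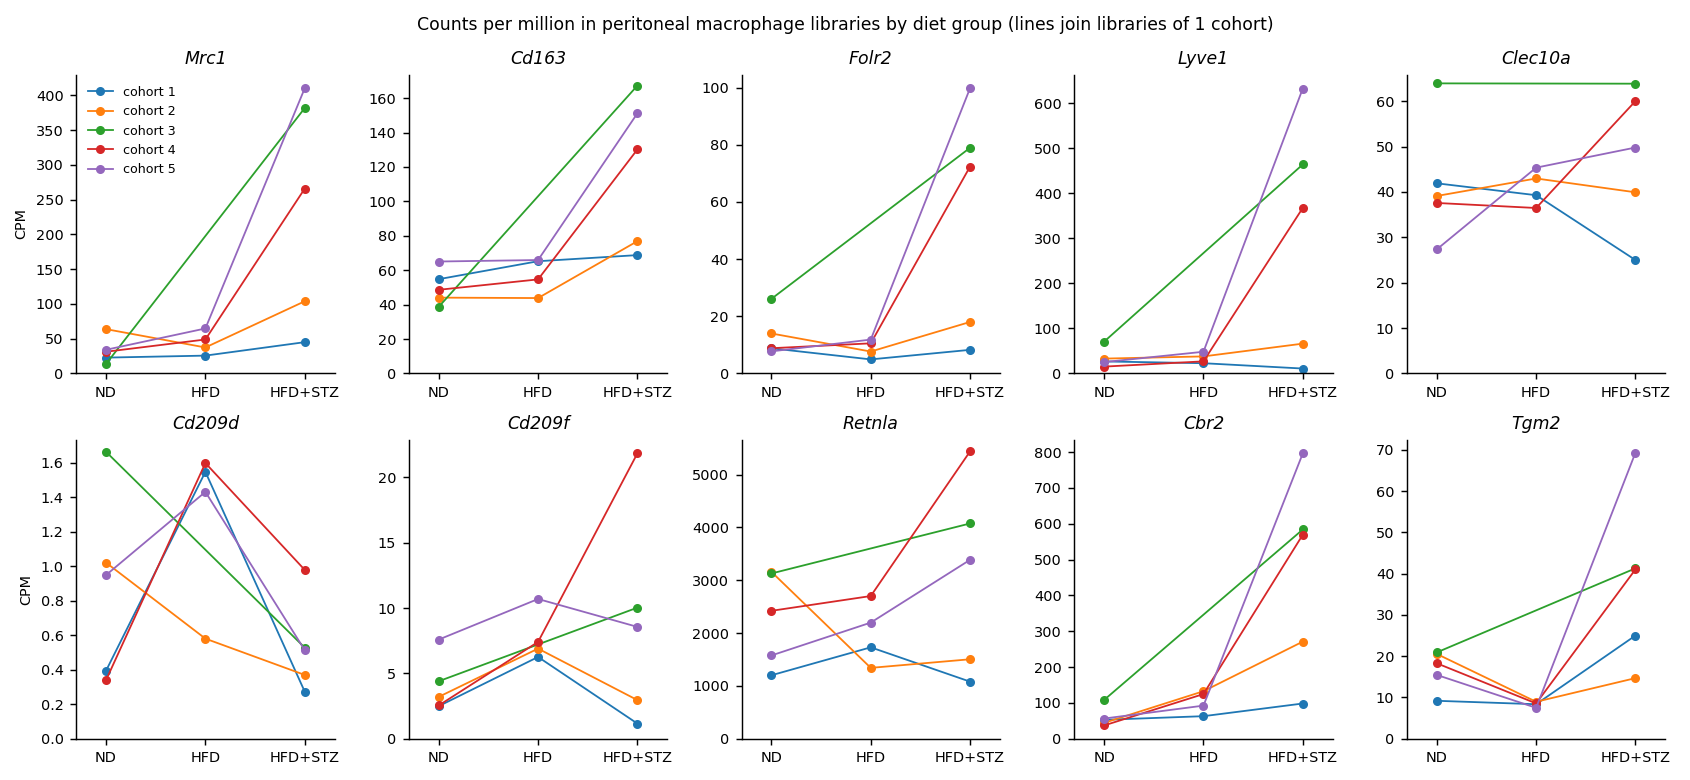
CPM in each peritoneal macrophage library of the diet experiment, 1 panel per gene, with lines joining the libraries of a cohort (cohort 3 has no HFD library). The HFD+STZ points of cohorts 3 to 5 lie well above those of cohorts 1 and 2 for Mrc1, Cd163, Folr2, Lyve1 and Cbr2, with 382, 266 and 410.1 against 45.0 and 103.8 CPM for Mrc1.

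Over the 20 alternatives the log2 change of Mrc1 ran from 2.12 to 3.04 and that of Cd163 from 0.97 to 1.38, while their calls depended on single libraries and settings. Mrc1 was lost without ND replicate 3, 4 or 5 (adjusted p = 0.0707, 0.101 and 0.103) or HFD+STZ replicate 3, 4 or 5 (0.0787, 0.0918 and 0.101). Cd163 was lost without ND replicate 4 or 5 (0.0846 and 0.0861) or HFD+STZ replicate 4 or 5 (0.0918 and 0.0944). Both were lost without scaling factors (0.0618 and 0.0575), and Mrc1 also with no filter on low counts (0.103) and with voom (0.0532). Cbr2 was called in 20 of 20 alternatives, with a largest adjusted p of 0.0413. Without HFD+STZ replicate 1 Lyve1 and Folr2 were called too (adjusted p = 0.0111 and 0.0360), and without HFD+STZ replicate 2 Lyve1, Folr2 and Tgm2 were (0.0468, 0.0400 and 0.0190). DESeq2 called 6 of the 10 and voom 2, against 954 and 246 genes in all, where edgeR called 171.

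HFD+STZ against HFD, and HFD against ND, gave no adjusted call among the 10. edgeR called 0% of 13225 genes in each, with 8.08% and 3.54% of genes at an unadjusted p below 0.05, DESeq2 called 202 and 24 genes, and voom 85 and 6. In HFD+STZ minus HFD 7 of the 10 had such a p: Tgm2 (2.01 ± 0.36, adjusted p = 0.0635), Mrc1 (2.25 ± 0.53, 0.172), Cbr2 (1.81 ± 0.42, 0.162), Folr2 (2.18 ± 0.49, 0.158), Cd163 (0.97 ± 0.24, 0.197), Lyve1 (2.502 ± 0.77, 0.317) and the lower Cd209d. Tgm2 in HFD+STZ did not overlap HFD, where all 4 libraries held 7.49 to 8.96 CPM, and it was higher in 4 of 4 shared cohorts. DESeq2 called 5 of the 10 in this comparison and voom 1. In HFD minus ND Cbr2 was higher (0.97 ± 0.40, adjusted p = 0.989) and Tgm2 lower (-0.90 ± 0.35, adjusted p = 0.989) by the unadjusted p only, and DESeq2 and voom called 0 of the 10. The Tgm2 libraries of HFD and ND did not overlap. These comparisons share their control groups, so their values are not independent of each other.

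Genes of the wider lists were counted in HFD+STZ minus ND against the same 1.29%. These lists too were chosen with earlier results of these data known, so the counts are descriptions. Of the interleukin-4 and STAT6 list 1 of 25 tested genes was called, the chitinase-like gene Chil3, which rose from 20.7 ± 17.6 to 126 ± 78.4 CPM (2.56 ± 0.44, adjusted p = 0.0194). The median of that list was 0.09, and 13 of 25 were higher. Of the other scavenger and lectin receptors 4 of 33 were called: Siglec1, the sialic acid receptor of resident macrophages (2.33 ± 0.44, adjusted p = 0.0272), Clec4a1 (1.06 ± 0.17, 0.0155) and Clec12a (0.86 ± 0.19, 0.0474) were higher and Clec1b lower (-2.20 ± 0.44, 0.0331). The resident macrophage list had 3 of 21 called, all higher: Gas6, a bridging molecule for dead cells (3.16 ± 0.51, adjusted p = 0.0132), Selenop (1.06 ± 0.18, 0.0161) and Nrp1 (1.03 ± 0.21, 0.0326). Gas6 went from 5.22 ± 1.71 CPM in ND to 56.8 ± 40.1 in HFD+STZ, and Siglec1 from 20.96 ± 11.6 to 103.7 ± 44.1 CPM. In HFD+STZ minus HFD 0 genes of these 3 lists were called.

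Markers of the peritoneal cell types were looked at in the same libraries. All 10 large peritoneal macrophage markers were lower in HFD+STZ than in ND (median -0.75), and 2 were called, Gata6 (-1.42 ± 0.30, adjusted p = 0.0419) and Garnl3 (-1.81 ± 0.34, adjusted p = 0.0285), the latter named after its value was seen. Gata6, the transcription factor of large peritoneal macrophages, averaged 32.2 ± 3.24 CPM in ND and 12.9 ± 6.38 in HFD+STZ. Their sum was 43252, 52425, 37868, 59671 and 52142 CPM in the ND libraries of cohorts 1 to 5 and 45484, 45231, 31995, 34410 and 29462 in HFD+STZ, so it was lowest in the 3 HFD+STZ libraries where Mrc1, Lyve1 and Cbr2 were highest. The 12 dendritic cell and small peritoneal macrophage markers summed to 522 to 3034 CPM in ND and 922 to 2532 CPM in HFD+STZ, with 9 of 11 tested genes higher, 0 called and a median of 0.53. Flt3, the first of them, was at or below 1.31 CPM in every peritoneal diet library. Of the 8 border-associated macrophage markers 6 were higher and 2 called, Clec12a, counted above, and Ms4a6c (1.28 ± 0.26, adjusted p = 0.0343), named after its value was seen. Of the 7 tested monocyte markers 5 were higher and 0 called (median 0.78). The 9 mesothelium and fibroblast markers summed to at most 3.28 CPM in any of these libraries. The part of a changed mix of peritoneal cells in the result was not tested.

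In islet macrophages no gene of the 10 was called in any diet comparison. edgeR called 0% of 12406 genes in HFD minus ND, 0% in HFD+STZ minus ND and 0% in HFD+STZ minus HFD, with 2.42%, 5.66% and 4.99% of genes at an unadjusted p below 0.05. DESeq2 called 224, 593 and 374 genes there and voom 0, 5 and 1. Of the 10, 8 were tested and 0, 2 and 3 had such a p. Mrc1 held 24.1, 73.2, 107.6 and 118.2 CPM in ND, 63.6, 98.6, 95.3 and 61.3 in HFD, and 204, 138 and 202 in HFD+STZ (ND and HFD from cohorts 1, 3, 4 and 5, HFD+STZ from 3, 4 and 5). The HFD+STZ libraries overlapped neither group, a separation whose share over all genes is not given. The change against ND was 1.05 ± 0.40 (adjusted p = 0.850). Tgm2 held 283, 467, 376 and 250.2 CPM in ND, 341.5, 275.5, 479 and 196.5 in HFD, and 1014, 428 and 682 in HFD+STZ. Its change was 1.05 ± 0.34 against ND (adjusted p = 0.796) and 1.16 ± 0.36 against HFD (adjusted p = 0.956), and DESeq2 called the second (adjusted p = 0.0329). Cd163 was at 0 in 2 of the 3 HFD+STZ libraries, and Lyve1, Folr2, Cd209d and Cd209f were each at 0 in at least 2 of them. In HFD the level of Lyve1 came from 1 library with 61.7 CPM, the other 3 holding at most 0.347, so its value against HFD+STZ (edgeR, unadjusted p = 0.0316, adjusted p = 0.956) rests on that library. Cd209f was at 0 in all 3 HFD+STZ libraries and at 0 to 14.4 CPM in HFD (unadjusted p = 0.0361, adjusted p = 0.956).

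Diet microglia held little of the set. edgeR called 0% of 13972 genes in HFD minus ND, 0% in HFD+STZ minus ND and 0% in HFD+STZ minus HFD, with 3.16%, 2.15% and 4.77% of genes at an unadjusted p below 0.05. DESeq2 called 18, 21 and 49 genes there and voom 0 in each. Only Mrc1, Cbr2, Clec10a and Tgm2 were tested, and DESeq2 and voom called 0 of them. HFD+STZ replicate 9 was the only library of its cohort, so with cohort in the fit it could not inform the fitted changes. The levels below include it. Mrc1 averaged 23.2 ± 15.8, 14.6 ± 8.39 and 20.1 ± 20.2 CPM in ND, HFD and HFD+STZ, and Tgm2 73.4 ± 19, 85.6 ± 31.9 and 64.3 ± 12.3 CPM. Clec10a reached at most 2.38 CPM in HFD+STZ and 1.28 CPM in HFD, with 2 and 3 of 4 libraries at 0 (unadjusted p = 0.0431, adjusted p = 1). Folr2 and Lyve1 stayed at or below 1.17 CPM in every diet microglia library, and Cd209d was at 0 in all 12. The border-associated macrophage markers summed to 141 to 215 CPM in ND, 94.9 to 176 in HFD and 113.1 to 208 in HFD+STZ. Ms4a6b again gave most of that sum, with means of 120.0 CPM in ND, 85.1 in HFD and 110.1 in HFD+STZ.

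Whether a diet effect differed among the 3 populations was tested in a joint fit. It called 0.308% of 17230 genes for HFD minus ND, 0.754% for HFD+STZ minus ND and 0.708% for HFD+STZ minus HFD, and 0 of the 10 genes in each. An unadjusted p below 0.05 was reached by 2, 6 and 7 of the 10, and by 7.78%, 11.1% and 11.1% of all genes. For HFD+STZ minus ND the smallest adjusted p was 0.106, that of Lyve1, and for HFD+STZ minus HFD it was 0.0692, that of Tgm2. The peritoneal changes were therefore not shown to differ from those of islet macrophages and microglia.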

How the data were processed

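RNA from sorted macrophages and monocytes was sequenced by Smart-seq2. The authors deposited raw counts per gene for each experiment, made with Trimmomatic 0.36, STAR 2.5.1a and featureCounts on mm10, per the submitters' processing notes; the sources used here do not give the annotation release, strand or treatment of multimapping reads. Of 50686 identifiers 50376 matched a GENCODE M21 symbol. Total counts per library were 7915242 to 27315750 in the refeeding and 11349232 to 34466388 in the diet experiment, and 0 of 443 same-group pairs were identical.

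Counts were tested with edgeR 4.0.16 (quasi-likelihood F test, filterByExpr, TMM scaling, R 4.3.3), with Benjamini-Hochberg adjustment over all genes tested and a call at adjusted p below 0.05. Fits held treatment and cohort within a population. In the diet islet and peritoneal fits the cohort is the replicate number. DESeq2 1.42.0, limma 3.58.1 (voom) and other alternatives are compared in the closing section. Relations used 100000 permutations (scipy 1.17.1) over all libraries of a population, without regard to cohort or treatment. On simulated counts with 200 changed genes the fit was tested beforehand. Those counts had no cohort effects and the same dispersion (relative spread) for every gene, and genes of the lowest levels were left unchanged.

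The 10 genes and all lists were chosen with earlier results of these data known. Fold changes are given for members with an unadjusted p below 0.05, and at most 4 called genes per list and direction are named. The result of 1 listed gene is not reported here. Same-numbered peritoneal diet libraries deviated together (mean r = 0.142, 9 of 13 pairs above 0.1), and islet ones less (0.0534, 2 of 10). For refeeding libraries cohort differences were removed as well, and mean r ran from -0.437 to -0.233. That removal pushes r within a small cohort below 0, so these values cannot decide whether same-numbered refeeding libraries deviated together. Promoters are from RefSeq (GRCm38.p6).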

Additional observations from a re-analysis of the deposited data

Results flagged for a closer look

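In 15 of 135 groups of a gene and a condition, 1 library lay far from the rest of its group on log2(CPM + 1), where the rule's nominal rate is about 1 group in 20, a rate not tested on these data. The monocyte library numbered 4 was low in each treatment for the genes given next, though not for Cbr2 (9.17 CPM fasted, 28.8 CPM refed). The fasted monocyte replicate 4 held 0.430 CPM of Cd163 (others 9.30 to 20.2) and 0.0955 of Cd209d (others 10.9 to 42.9). The refed monocyte replicate 4 held 0.177 CPM of Mrc1 (others 10.9 to 73.05) and 0.0885 of Cd209d (others 5.18 to 24.1). Retnla was high in 1 monocyte library per treatment, with 173 CPM in fasted replicate 7 (others at most 3.74) and 179 CPM in refed replicate 1 (others at most 7.96). Low libraries elsewhere were refed microglia replicate 3 with 0.190 CPM of Mrc1 (others from 4.94), refed islet replicate 9 with 12.7 CPM of Mrc1 (others from 103.5) and refed islet replicate 4 with 0.336 CPM of Cd163 (others from 40.2). Fasted colonic replicate 1 held 10.2 CPM of Cd163 (others from 109.5), fasted peritoneal replicate 2 held 0.404 CPM of Lyve1 (others from 9.46), and fasted adipose replicate 5 held 672 CPM of Cbr2 (others from 1019). Fasted Kupffer replicate 7 held 1423 CPM of Tgm2 (others 904 to 1041). In the diet experiment islet HFD replicate 5 held 61.7 CPM of Lyve1 (others at most 0.347) and 155 CPM of Retnla (others at most 1.94), and it was also the highest HFD library for Folr2, Cd209d and Cd209f at 4.74, 4.74 and 14.4 CPM.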

How the results depend on the processing

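Counts of the 10 genes called equalled the main value or lay near it in 211 alternatives and moved in 18, and no result reversed. Here 2 called against 3 in the main fit was taken as near, so a lost call can be among the 211. With no filter on low counts, 3 genes were called after refeeding in adipose macrophages, 1 in Kupffer cells, 1 in peritoneal macrophages, and 2 in peritoneal HFD+STZ minus HFD, where the same fits called 96, 37, 312 and 166 genes in all. DESeq2 called 1 in islet HFD+STZ minus HFD, 6 in peritoneal HFD+STZ minus ND and 5 in peritoneal HFD+STZ minus HFD. Without scaling factors 1 was called in peritoneal HFD+STZ minus ND. With voom 1 was called in peritoneal HFD+STZ minus HFD, 2 for a refeeding effect that differed among populations, and 1 (Retnla) and 3 (Tgm2) population pairs. Leaving out each replicate gave 1 to 6 genes in peritoneal HFD+STZ minus ND and 0 to 1 in peritoneal HFD+STZ minus HFD. Without the replicate block 3 and 1 were called in those comparisons, and the Mrc1 change was 2.86 in HFD+STZ minus ND. With the replicate number as a block in the refeeding fits 0 of the 10 were called in each population, and peritoneal calls over all genes went from 49 to 0. Over all genes, peritoneal HFD+STZ minus ND gave 30 calls (without HFD+STZ replicate 4) to 954 (DESeq2) against 171. The refeeding effect among populations gave 3 calls with the replicate block, an alternative chosen after seeing the data, against 1884. The cause of these differences was not tested. Low counts limit Cd209d, Cd209f, Folr2 and Lyve1 in diet islet macrophages and in microglia, and Cd209d in refeeding islet macrophages, where many libraries held 0 reads.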

Other observations

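Arg1, the arginase that is a classical interleukin-4 target, had its lowest mean in HFD among peritoneal macrophages of the diet experiment. It was chosen here after its values were seen. Arg1 averaged 779 ± 296 CPM in ND (327 to 1071), 203 ± 29.5 CPM in HFD (165 to 237) and 573 ± 283 CPM in HFD+STZ (175 to 877). The HFD and ND libraries did not overlap, a separation whose share over all genes is not given. The Arg1 change of -1.95 ± 0.45 (log2, SE) did not pass the adjusted test (edgeR, adjusted p = 0.679). In the same libraries Chil3, another interleukin-4 target, averaged 20.7 ± 17.6, 31.4 ± 22.5 and 126 ± 78.4 CPM.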
